A study of Mus musculus with 12 samples.

Results

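RNA-seq libraries of P2 cells, the Kit+CD24+ progenitors of E14.5 mouse fetal liver (FL), were compared across all genes with libraries of CD31+ endothelial cells from the same tissue. The study asked what the Kit+ cells of FL that lack both Ter119 and CD45 are. Of the 12 libraries of the series, the 6 described here were chosen by their sort labels, 3 of P2 cells and 3 of CD31+ cells. All came from C57BL/6 embryos, and replicates were independent litters per the methods of the study. P2 cells were sorted as Ter119-CD45-CD54-CD31-Kit+CD24+, and CD31+ cells as Ter119-CD45-CD54+CD31+. Both gates therefore left out cells with the red cell antigen Ter119 or the leukocyte antigen CD45. Another population of E14.5 FL, Ter119-CD45-CD54+CD31- cells in 3 libraries, was fitted with them and is given where its level bears on a result. The labels do not say how many embryos a litter contributed. In sorted bulk RNA, fewer cells of a type and less RNA per cell cannot be told apart.

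FL is the main organ of blood formation at midgestation. Committed erythroid progenitors divide there, driven by the growth factor receptor Kit and the erythropoietin receptor, and the transcription factors GATA1, KLF1, and TAL1 switch on heme synthesis, iron uptake, and the red cell membrane. Sinusoidal endothelial cells line the vessels through which those cells leave, and clear macromolecules from blood with scavenger receptors such as STAB2 and LYVE1. Definitive blood cells arise in the embryo from endothelium, and several transcription factors and signaling proteins are known from both lineages.

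Levels are CPM, counts scaled to the TMM-normalized library size, in the order of replicates 1, 2, and 3. Log2 fold changes are P2 minus CD31+, with the standard error (SE) after the ± sign, and adjusted p is from the quasi-likelihood test of edgeR, adjusted by Benjamini-Hochberg over 15461 genes. Total counts were 44166607 to 51559658 in P2 libraries and 50571764 to 56719068 in CD31+ libraries. *Cdk8*, *Zc3h7a*, and *Il1rapl1* together took 14.2% to 20.4% of the counts of these 6 libraries. Of the 556 genes listed for description, 22 were listed at 0 in all 12 libraries, among them *Alas2*, *B2m*, *Lyl1*, *Zfpm1*, *Cdt1*, and *Tk1*. Each of the 22 lies wholly within the annotated span of another gene, so these zeros were not read as lack of expression.

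The genes of the sorting antibodies followed the gates, which is no finding but checks the labels. *Kit* was at 281, 291, and 337 CPM in the P2 libraries and 47.96, 57.4, and 65.3 CPM in the CD31+ libraries. *Cd24a* was at 447, 363, and 422 CPM and 48.8, 79.6, and 84.7 CPM, respectively. *Pecam1*, which encodes CD31, was at 4.297, 27.2, and 7.74 CPM in P2 cells and 555, 608, and 515 CPM in CD31+ cells. Of the P2 libraries, replicate 2 had the highest *Pecam1*. *Icam1*, which encodes CD54, was at 1.08, 3.81, and 2.32 CPM and 104, 91.7, and 140.2 CPM. *Ptprc*, the gene of the excluded antigen CD45, was low in both populations, at 1.95 ± 0.591 CPM (SD, n = 3) in P2 cells and 10.5 ± 4.17 CPM (SD, n = 3) in CD31+ cells. It was nevertheless beyond 2-fold higher in CD31+ cells (log2 fold change -2.43 ± 0.33). Its CD31+ values were 7.75, 8.45, and 15.3 CPM, highest in replicate 3.

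Each population carried some RNA of genes that define the other, in unequal shares between libraries. The 33 tested pan-endothelial genes summed to 158, 686, and 223 CPM in the P2 libraries, against 14561, 14991, and 13831 CPM in the CD31+ libraries. P2 replicate 2 stood apart from the other P2 libraries in this sum. Expressed as a share of the CD31+ mean, the median of these genes was 0.768%, 4.36%, and 1.199% in P2 replicates 1, 2, and 3. In the other direction, 19 genes of the erythroid surface and signaling list that were more than 2-fold higher in P2 cells had medians of 12.4%, 16.5%, and 14.8% of the P2 mean in CD31+ replicates 1, 2, and 3. The same 19 genes had medians of 12.8%, 20.4%, and 16.6% in the CD54+CD31- libraries. CD31+ replicate 3 was highest in granulocyte and globin RNA: the 15 granulocyte and mast cell genes summed to 164, 317, and 666 CPM and the 7 globins to 76.5, 139.6, and 371 CPM in CD31+ replicates 1, 2, and 3. The part of RNA from other cells in the differences below was not tested, and results that these libraries moved most are also given without P2 replicate 2 or CD31+ replicate 3.

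**Figure D1:**
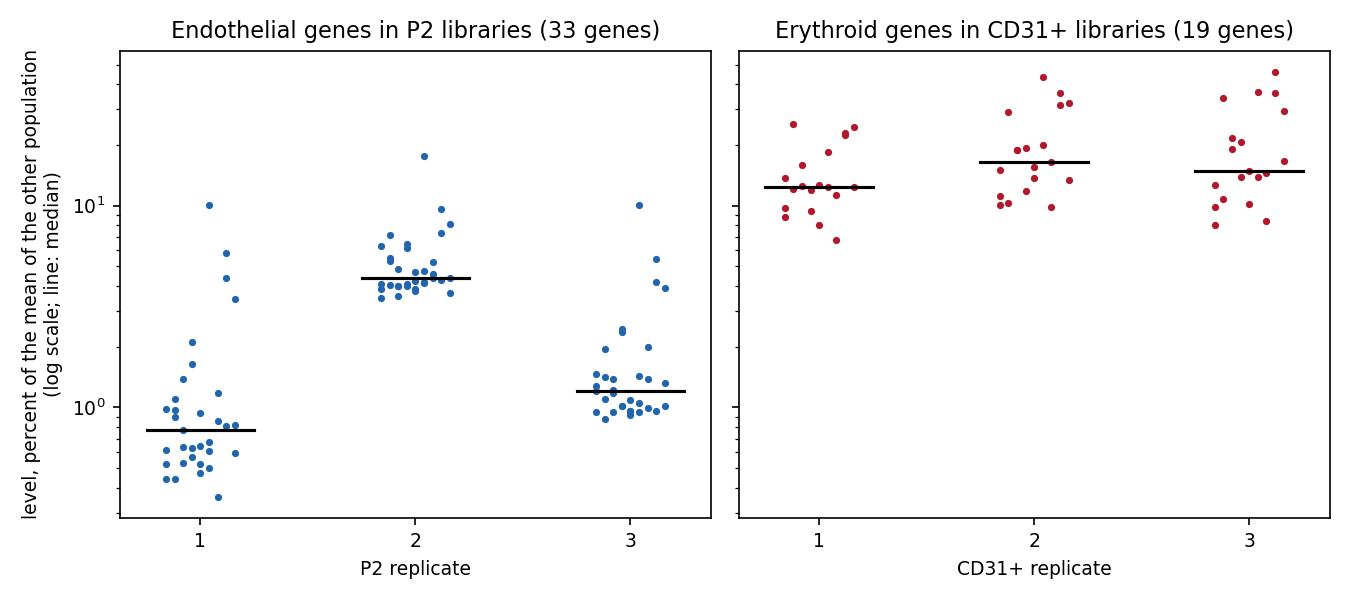
Level of genes of one population in the libraries of the other, as a percent of the mean of the population that defines them, on a log scale. Left, 33 pan-endothelial genes in P2 replicates 1 to 3. Right, 19 erythroid surface and signaling genes, chosen because they were more than 2-fold higher in P2 cells, in CD31+ replicates 1 to 3. Points are genes and lines are medians; P2 replicate 2, at a median of 4.36%, lies above the other P2 libraries, and the CD31+ medians lie between 12.4% and 16.5%.

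**Figure D2:**
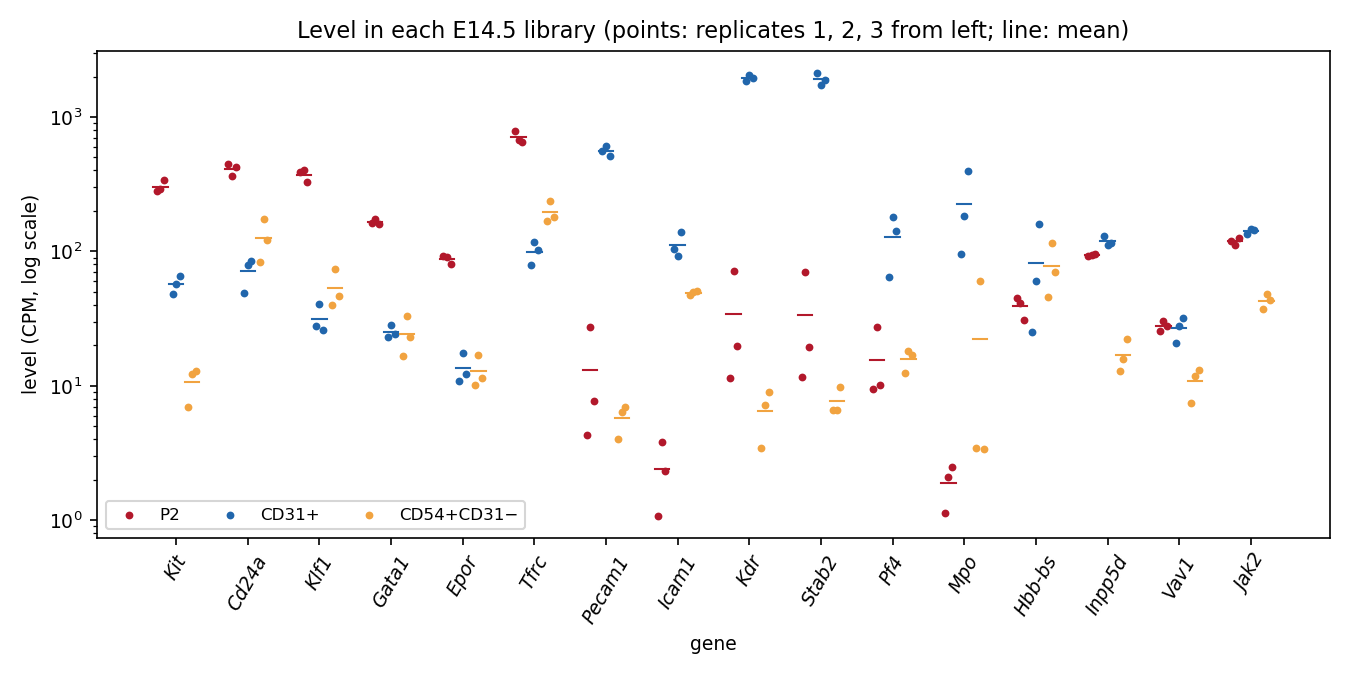
Level of 16 genes in each of the 9 E14.5 libraries, in CPM on a log scale, with replicates 1, 2, and 3 from left to right and a line at the mean. The genes of the Kit and CD24 antibodies and the erythroid genes are highest in P2 libraries, the endothelial genes in CD31+ libraries, and *Inpp5d*, *Vav1*, and *Jak2* lie close together in the P2 and CD31+ libraries.

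Most genes differed between P2 and CD31+ cells, and the differences were larger on the CD31+ side. Of 15461 genes tested, 11395 (73.7%) passed the test, 5310 higher in P2 cells and 6085 higher in CD31+ cells. Against a threshold of 2-fold (edgeR's glmTreat), 5653 genes (36.6%) passed, 1783 higher in P2 cells and 3870 in CD31+ cells. Among these, 112 genes were more than 8-fold higher in P2 cells and 2239 in CD31+ cells, and over 32-fold the counts were 3 and 702. These counts set no minimum level beyond the low count filter. The unequal share of RNA from the other population, given above, was not removed from them. The interval of the difference lay wholly within 2-fold for 4435 genes (28.7%). With the authors' own normalization factors the median log2 fold change of all genes moved from -0.13 to -0.50, and the share of called genes that were higher in P2 cells from 46.6% to 33.9%.

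**Figure D3:**
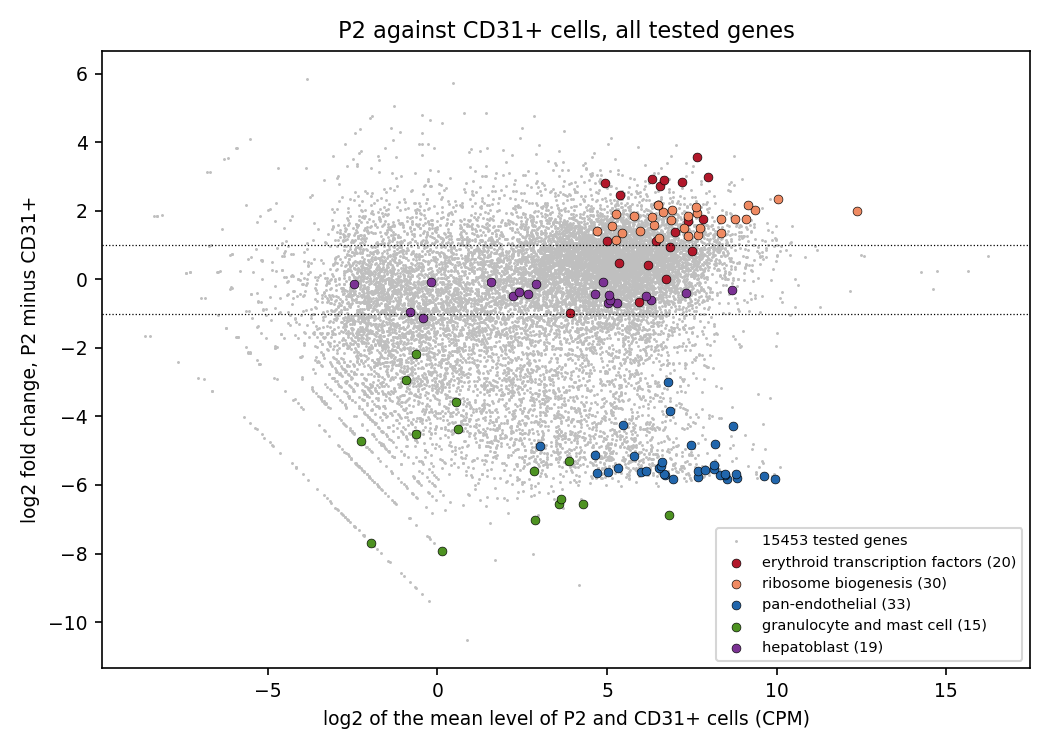
Log2 fold change, P2 minus CD31+, against the log2 of the mean level of both populations in CPM, for the tested genes with a count in these libraries (gray points), with 5 gene lists in color. Dotted lines mark 2-fold. Erythroid transcription factors and ribosome biogenesis genes lie mostly above 0, pan-endothelial and granulocyte genes far below it, and hepatoblast genes close to it.

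The 15 largest differences toward P2 cells included erythroid genes, membrane transporters, and genes of other kinds. Among genes with at least 20 CPM in P2 cells and no overlap between libraries, the largest difference was that of *Prss50*, a serine protease family gene, at 24.2, 26.7, and 24.7 CPM against 1.02, 1.18, and 1.58 CPM (log2 fold change 4.31 ± 0.22). *Sphk1*, the kinase that makes sphingosine 1-phosphate, was at 66.3, 67.00, and 62.4 CPM in P2 cells and 2.62, 5.49, and 3.04 CPM in CD31+ cells. *Epdr1*, which encodes an ependymin-related glycoprotein, was at 61.5 CPM on average in P2 cells and 3.97 CPM in CD31+ cells. All these genes were low in every CD31+ library. Next were *Atp1b2*, a beta subunit of the sodium pump (244 against 16.02 CPM), the adaptor gene *Sh2d4a* (114 against 7.77 CPM), the homeobox gene *Hesx1* (22.3 against 1.66 CPM), and the carboxylesterase gene *Ces2g* (45.2 against 3.54 CPM). *Atp7b*, a copper-transporting ATPase, was at 218, 213, and 222 CPM in P2 cells and 17.5, 20.3, and 15.7 CPM in CD31+ cells, but was also high in CD54+CD31- cells (201 ± 15.3 CPM; SD, n = 3). *Tfr2*, a sensor of iron-loaded transferrin, had a like pattern, at 69.01 CPM in P2, 6.01 CPM in CD31+, and 91.1 CPM in CD54+CD31- cells. The rest of the 15 were *Ermap*, *Klf1*, the water and glycerol channels *Aqp3* and *Aqp9* (23.9 against 2.22 and 20.1 against 1.903 CPM), the erythroid translocator protein gene *Tspo2* (37.4 against 3.57 CPM), and the unconfirmed transcript A730089K16Rik, 76.0% of whose span lies in C530008M17Rik.

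Most transcription factors of erythropoiesis were higher in P2 cells. Of 20 tested (21 were listed), 16 were higher in P2 cells and 11 were so beyond 2-fold, and their median, on the log2 fold change scale, was 1.53 against -0.13 for all genes. In the whole table, 34.3% were higher in P2 cells and 11.5% beyond 2-fold. *Klf1*, the erythroid Krüppel-like factor, was at 389.7, 403, and 326 CPM in P2 libraries and 27.8, 40.5, and 26.1 CPM in CD31+ libraries, a log2 fold change of 3.57 ± 0.25 (adjusted p = 5.98e-07). *Ikzf1*, a zinc finger factor of progenitors, was at 451, 428, and 474 CPM against 48.00, 54.4, and 69.2 CPM (2.98 ± 0.21). *Gfi1b*, a repressor needed for red cells and megakaryocytes, was at 141, 137, and 149.5 CPM against 16.2, 22.4, and 17.1 CPM (2.94 ± 0.17). For each of these factors the lowest P2 library was above the highest CD31+ library, as held for 77.2% of all genes in 1 direction or the other. *Gata1*, the master regulator of the lineage, was at 163, 173, and 159.8 CPM in P2 cells, 23.1, 28.4, and 24.1 CPM in CD31+ cells, and 16.6, 32.9, and 23.2 CPM in CD54+CD31- cells (log2 fold change 2.71 ± 0.21). *Hbp1* and *Klf13* went against the list, at 10.1 and 47.3 CPM in P2 cells and 19.97 and 75.4 CPM in CD31+ cells (adjusted p = 8.73e-05 and 3.81e-05). Both are broadly expressed, the former a repressor that restrains cell cycle entry. *Klf3*, a repressor that KLF1 induces, was at 108 ± 12.4 CPM in P2 and 108 ± 15.9 CPM in CD31+ cells (SD, n = 3; interval of the log2 fold change -0.28 to 0.28). Per kilobase of exon, *Klf1* stood at 244 CPM in P2 cells, *Gfi1b* at 77.8, and *Gata1* at 67.8, whereas the same genes stood at 20.6, 10.2, and 10.3 CPM per kilobase in CD31+ cells.

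Receptors and surface proteins of erythroid cells behaved alike. Of 26 tested (27 listed), 21 were higher in P2 cells, 19 beyond 2-fold (median log2 fold change 2.47). *Ermap*, an erythroid adhesion and blood group protein, had the largest difference, at 783, 749.7, and 833 CPM against 52.97, 77.9, and 65.8 CPM (3.59 ± 0.19). *Tspo2* and the calcium-activated potassium channel gene *Kcnn4* followed, with log2 fold changes of 3.39 ± 0.23 and 3.38 ± 0.23. *Epor*, the erythropoietin receptor gene, was at 92.02, 90.1, and 80.9 CPM in P2 cells and 10.9, 17.6, and 12.1 CPM in CD31+ cells (2.697 ± 0.22; adjusted p = 1.68e-06). *Tfrc*, which encodes the transferrin receptor CD71, was at 792, 670.3, and 657 CPM against 79.8, 117, and 103 CPM (2.83 ± 0.17). In contrast to these receptors, *Jak2*, the kinase that the erythropoietin receptor activates, was at 119.9, 111, and 126 CPM in P2 cells and 135, 146, and 143 CPM in CD31+ cells, a difference of -0.25 ± 0.10 in favor of CD31+ cells (adjusted p = 0.0468) that was lost in 8 of 16 other fits, 5 of them without 1 library (without CD31+ replicate 2 or 3 or any P2 replicate; adjusted p up to 0.256). *Cd36*, a fatty acid and scavenger receptor of erythroblasts, macrophages, and endothelium, was at 4.19, 10.3, and 4.88 CPM in P2 cells and 239, 311, and 315 CPM in CD31+ cells (-5.48 ± 0.36). *Cish*, a feedback inhibitor of cytokine receptors, was low in both, at 0.221 and 1.92 CPM.

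As examples of regulatory sequence at erythroid genes, the stretches just upstream of *Klf1*, *Ermap*, and *Epor* are printed below from the RefSeq promoter table of GRCm38.p6, 5′ to 3′ on the gene's strand and cut where an annotated exon begins. They are chr8:84901732-84901927 on the plus strand, chr4:119190012-119190245 on the minus strand, and chr9:21963577-21963826 on the minus strand. Capitals mark the letters AGATAA or TGATAA on either strand, which GATA factors are known to bind, and each stretch held 1 such match. The upstream stretches of *Kit*, searched with them, held 0 and are not printed, so the printed genes are those with a match. The genes themselves lie at chr8:84901928-84905291, chr4:119175457-119190011, and chr9:21958897-21963506, and were picked after their values were seen.
Klf1: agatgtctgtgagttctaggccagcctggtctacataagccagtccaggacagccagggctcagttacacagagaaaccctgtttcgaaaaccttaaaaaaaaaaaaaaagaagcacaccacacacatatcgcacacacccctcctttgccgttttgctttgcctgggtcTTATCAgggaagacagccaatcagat
Ermap: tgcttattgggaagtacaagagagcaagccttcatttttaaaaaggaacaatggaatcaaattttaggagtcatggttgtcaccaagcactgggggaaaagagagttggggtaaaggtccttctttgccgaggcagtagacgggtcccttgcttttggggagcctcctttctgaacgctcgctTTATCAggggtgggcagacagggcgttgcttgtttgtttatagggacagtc
Epor: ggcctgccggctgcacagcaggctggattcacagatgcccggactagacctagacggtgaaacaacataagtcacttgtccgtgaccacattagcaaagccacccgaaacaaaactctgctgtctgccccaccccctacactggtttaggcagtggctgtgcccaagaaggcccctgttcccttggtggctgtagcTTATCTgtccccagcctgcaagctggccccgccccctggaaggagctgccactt
A letter match is not a binding site, and the motif was no more frequent at genes higher in P2 cells. In the 250 bases before the annotated starts, 10.2% of 1615 promoters of genes more than 2-fold higher in P2 cells held it, 10.2% of 3773 promoters of genes more than 2-fold higher in CD31+ cells, and 10.3% of 14284 promoters of all tested genes. The letters CCNCNCCC, a motif of Krüppel-like factors, were in 60.7%, 66.5%, and 62.2%, the ETS motifs AGGAAG or CGGAAG in 46.6%, 41.6%, and 44.4%, and the E-box CAGNTG in 36.7%, 43.8%, and 40.0% of the same promoters. All were searched on both strands, and 11167 of 15449 tested gene symbols were in the table.

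Genes of heme synthesis and iron handling were higher in P2 cells for 14 of 20 tested members (23 listed), each beyond 2-fold (median log2 fold change 1.904). *Steap3*, the ferrireductase of the transferrin cycle, was at 183, 172, and 164 CPM against 17.2, 21.2, and 16.5 CPM (3.24 ± 0.15). *Cpox*, a late enzyme of the heme pathway, was at 905, 825, and 936 CPM against 99.4, 138, and 117 CPM (2.91 ± 0.18), and *Alad*, an early enzyme, at 172, 158, and 159 CPM against 25.3, 36.3, and 31.7 CPM (2.39 ± 0.20). Other enzymes of the pathway lay in the same direction, with log2 fold changes of 1.98 for *Uros*, 2.08 for *Urod*, 1.59 for *Ppox*, and 1.91 for *Fech*. The pathway's opening enzyme differed: *Alas1*, the housekeeping form, was at 26.5, 33.3, and 23.1 CPM in P2 cells and 74.4, 79.5, and 73.3 CPM in CD31+ cells (-1.45 ± 0.13), while the erythroid form *Alas2* was among the genes listed at 0. *Hmox1*, which degrades heme, was at 2.22, 10.5, and 5.28 CPM in P2 cells and 111, 139, and 203 CPM in CD31+ cells (-4.65 ± 0.51). The mitochondrial iron importer gene *Slc25a37* was at 93.3, 79.5, and 78.4 CPM and 44.2, 61.3, and 96.7 CPM, with overlapping libraries, and did not pass the test (adjusted p = 0.28, and 0.00806 without CD31+ replicate 3).

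The red cell membrane skeleton was higher in P2 cells for 14 of 17 genes, 8 beyond 2-fold (median log2 fold change 1.04). *Rhag*, the Rh-associated ammonia channel, was at 161, 132, and 154 CPM against 14.1, 17.7, and 20.6 CPM (3.096 ± 0.20). *Add2* and *Ank1*, the erythroid adducin and ankyrin genes that tie spectrin to the membrane, had log2 fold changes of 2.86 ± 0.18 and 2.74 ± 0.14. *Slc4a1*, the anion exchanger of mature red cells, did not follow them, at 127, 135, and 77.3 CPM in P2 libraries and 96.6, 116, and 147 CPM in CD31+ libraries (adjusted p = 0.777). *Mpp1* and the glucose transporter gene *Slc2a1* were higher in CD31+ cells (-0.95 and -0.67).

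Of 8 globin genes listed, 7 were tested, and none passed in the main fit, though single calls depended on the libraries and settings. *Hbb-bs*, an adult beta globin, was at 45.2, 41.3, and 30.8 CPM in P2 libraries and 25.3, 60.4, and 160.5 CPM in CD31+ libraries (-1.07 ± 0.56; adjusted p = 0.105). The CD31+ libraries spanned the P2 range, with replicate 1 below and replicate 3 above it. *Hbb-y*, the embryonic globin of primitive red cells, was at 3.93, 2.05, and 9.77 CPM and 2.73, 5.19, and 8.88 CPM. The globin median was -0.35 in log2 fold change, and 0.36 without CD31+ replicate 3, with 1 globin then higher in P2 cells. Without CD31+ replicate 1, *Hbb-bs*, *Hbb-bt*, and *Hba-a2* passed as higher in CD31+ cells (adjusted p = 0.0121, 0.0498, and 0.013), and *Hba-a2* passed in 6 of 16 other fits. With the authors' factors 2 globins were higher in CD31+ cells. The near-identical copies *Hba-a1* and *Hba-a2*, and *Hbb-bs* and *Hbb-bt*, can share reads, so their separate values are uncertain.

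Genes of cell growth and division were higher in P2 cells. All 30 tested ribosome biogenesis genes were higher, 29 beyond 2-fold (median log2 fold change 1.76). *Npm1*, the nucleolar chaperone, was at 1801, 1663, and 1830.4 CPM against 284, 401, and 362 CPM (2.34 ± 0.15), and *Nolc1* and *Polr1b*, a nucleolar phosphoprotein and a subunit of RNA polymerase I, had log2 fold changes of 2.17 ± 0.08 and 2.17 ± 0.08. At the lower end of the list were *Myc* (239 against 98.96 CPM), the polymerase I initiation factor *Rrn3* (129 against 55.9 CPM), and *Pes1* (53.2 against 24.1 CPM). DNA replication genes were higher in P2 cells for all 35 tested (38 listed), 22 of them beyond 2-fold (median 1.37). *Orc2*, a subunit of the origin recognition complex, was at 107, 98.9, and 101 CPM against 19.2, 25.2, and 19.9 CPM, *Dut*, which removes dUTP, at 374, 329, and 360.2 CPM against 68.95, 103, and 75.8 CPM, and the clamp loader subunit *Rfc4* at 81.7, 68.2, and 72.8 CPM against 16.3, 22.5, and 20.3 CPM. The smallest difference of the list, that of *Gins3*, left no overlap (21.8, 19.4, and 21.4 against 12.9, 14.7, and 12.97 CPM). The same held for 77.2% of all genes in 1 direction or the other. With the authors' factors 20 of the ribosome biogenesis genes and 13 of the replication genes were beyond 2-fold.

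The difference in mitotic genes was smaller. Of 31 tested (32 listed), 24 were higher in P2 cells (median log2 fold change 0.68) but only 2 beyond 2-fold, the cyclin genes *Ccna2* (329, 284, and 310.4 against 81.9, 125, and 105 CPM) and *Ccnb1* (43.9, 39.2, and 41.1 against 13.5, 19.02, and 16.9 CPM). Their partner kinase *Cdk1* was at 83.1, 85.1, and 85.8 CPM in P2 libraries and 73.1, 82.8, and 78.4 CPM in CD31+ libraries, with an interval of -0.06 to 0.29 on the log2 scale. *Foxm1*, a transcription factor of mitotic genes, was at 65.3 and 69.6 CPM. *Racgap1*, a regulator of cytokinesis, was slightly higher in CD31+ cells (-0.24 ± 0.10), a call lost without any 1 library (adjusted p = 0.0556 to 0.412). With the authors' factors 18 mitotic genes were higher in P2 cells and 5 in CD31+ cells.

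Cholesterol synthesis genes were modestly higher in P2 cells, 15 of 18 tested (19 listed) and 3 beyond 2-fold (median 0.87). Over all genes, 34.3% were higher in P2 cells and 11.5% beyond 2-fold. The list summed to 572, 542, and 576 CPM in P2 libraries and 319, 358, and 368 CPM in CD31+ libraries. In CD54+CD31- libraries it was far higher, at 5692, 5748, and 6205 CPM. Those 3 were *Idi1* (8.83, 8.47, and 6.33 against 1.52, 1.95, and 1.88 CPM), *Lss* (10.4 against 2.805 CPM), and *Sqle* (50.6 against 17.3 CPM), all enzymes after mevalonate. *Hmgcs1* and *Mvk* were higher in CD31+ cells (-0.84 and -0.57).

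**Figure D4:**
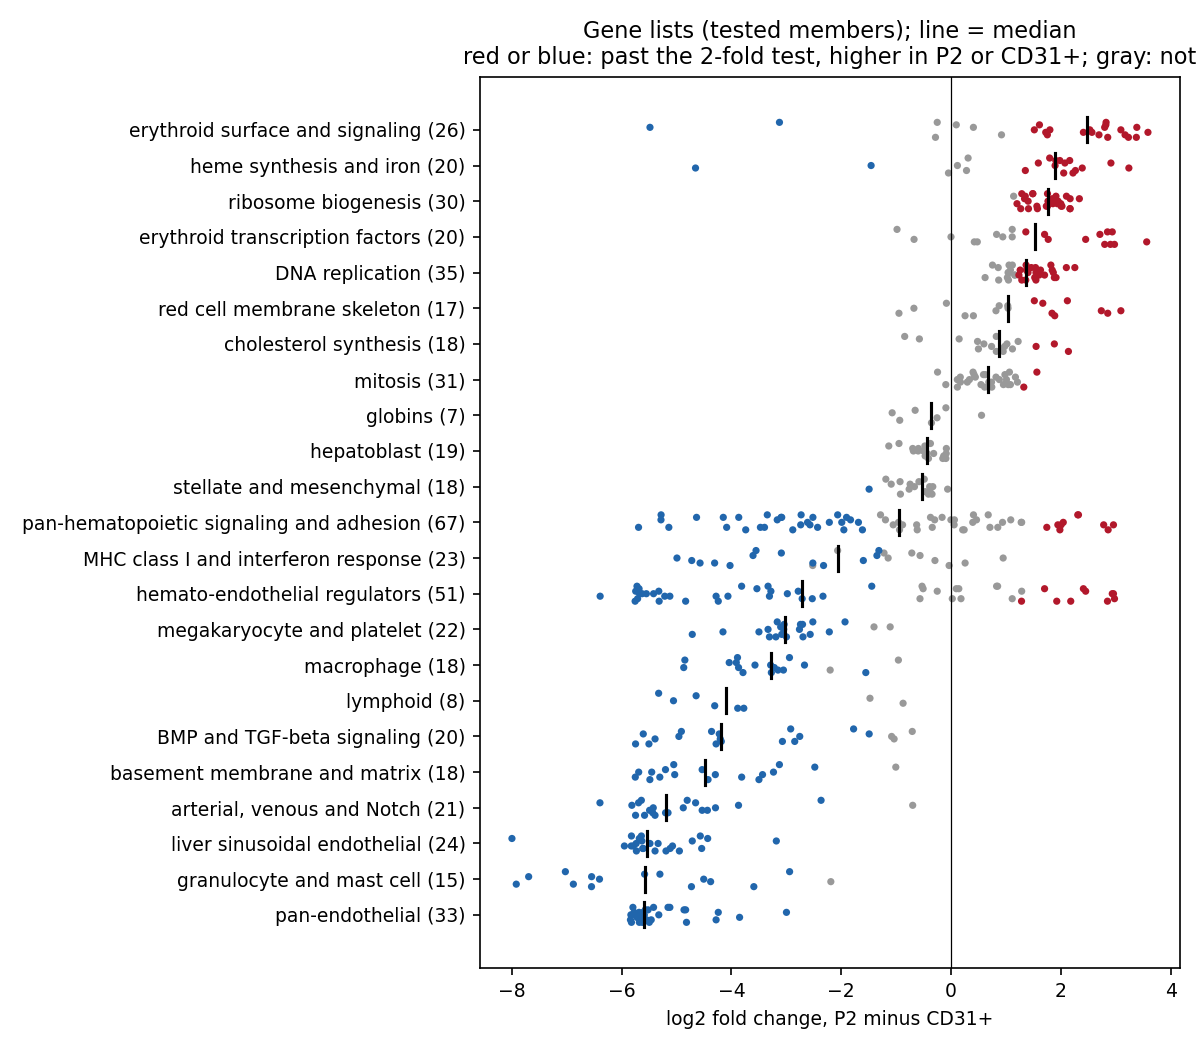
Log2 fold change, P2 minus CD31+, of every tested member of 23 gene lists, ordered by the list median (black line), with the number of tested members in parentheses. Red and blue points passed the 2-fold test as higher in P2 or CD31+ cells, gray points did not. The medians run from 2.47 for erythroid surface and signaling genes to -5.58 for pan-endothelial genes.

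The 15 largest differences toward CD31+ cells included genes of granulocytes and genes of vessels. Among genes with at least 20 CPM in CD31+ cells and no overlap between libraries, *Prg2*, the major basic protein of eosinophil granules, was at 0, 0.176, and 0.0362 CPM in P2 libraries and 22.7, 21.2, and 64.7 CPM in CD31+ libraries. *Mpo*, the peroxidase of neutrophil granules, was at 1.12, 2.09, and 2.496 CPM and 95.7, 183, and 398 CPM (-6.88 ± 1.24). Like these, *Elane* (15.4, 36.2, and 64.1 CPM), *Ctsg* (12.1, 21.9, and 39.7 CPM), *S100a9* (7.19, 17.5, and 46.9 CPM), and the myeloid lectin gene *Clec12a* (7.31, 20.7, and 36.2 CPM) were highest in CD31+ replicate 3. In P2 cells those 4 genes averaged 0.407, 0.289, 0.246, and 0.248 CPM. Other genes among the 15 were more even. *Edn1*, which encodes the vasoconstrictor endothelin 1, was at 0.0648, 0.547, and 0.235 CPM and 15.96, 18.6, and 28.3 CPM (-6.18 ± 0.52), and *Efna1*, an ephrin, at 0.475, 2.03, and 0.398 CPM and 63.6, 77.01, and 45.5 CPM (-5.996 ± 0.50). *Tmem88*, *Inhbb* (an activin subunit), *Crmp1*, *Kcnj2* (a potassium channel), *Cdh4* (R-cadherin), and *Hivep3* averaged 34.6, 20.01, 26.00, 36.97, 83.4, and 180.1 CPM in CD31+ cells and 0.529, 0.302, 0.253, 0.428, 1.28, and 2.72 CPM in P2 cells. *Sele*, the leukocyte-binding selectin of activated endothelium, ranged widely over the CD31+ libraries (11.3, 7.04, and 57.4 CPM).

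All 33 pan-endothelial genes tested (34 listed) were higher in CD31+ cells, each beyond 2-fold (median log2 fold change -5.58). In the whole table, 39.4% were higher in CD31+ cells and 25% beyond 2-fold. *Kdr*, the main receptor of VEGF, was at 11.5, 71.3, and 19.6 CPM in P2 libraries and 1841, 2046, and 1941 CPM in CD31+ libraries (-5.83 ± 0.68; adjusted p = 2.15e-05). *Ptprb*, a phosphatase of endothelial junctions, and *Adgrl4*, an adhesion receptor of vessels, had log2 fold changes of -5.84 ± 0.66 and -5.82 ± 0.52. *Vwf* (20.04, 34.9, and 19.9 against 179, 232, and 186 CPM), *Icam2* (12.5, 20.7, and 11.7 against 225, 237, and 186 CPM), and the sphingosine 1-phosphate receptor gene *S1pr1* (3.67, 6.16, and 3.49 against 74.7, 87.4, and 89.3 CPM) had the smallest differences, between -2.996 and -4.24. *Vwf* and *Icam2* are known also from platelets and leukocytes. *Sphk1*, which makes the ligand of *S1pr1*, was higher in P2 cells, as given above. Without P2 replicate 2, which had the highest endothelial sum of the P2 libraries, the median was -6.65, and all 33 calls remained.

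Sinusoidal endothelial genes separated the populations as sharply, with all 24 tested beyond 2-fold higher in CD31+ cells (median -5.54, and -5.43 with *Clec4g*, which had no count in P2 cells, set at its bound). Without P2 replicate 2 the median was -6.68, with 24 still beyond 2-fold. *Stab2*, the hyaluronan scavenger receptor, was at 11.7, 70.7, and 19.3 CPM in P2 libraries and 2129.9, 1722, and 1891 CPM in CD31+ libraries, and *Lyve1*, a hyaluronan receptor, at 9.52, 73.2, and 20.4 CPM and 1673, 1991, and 1803 CPM. *Mrc1*, the mannose receptor, was at 7.88, 50.7, and 14.5 CPM and 1238, 1344, and 1440.5 CPM. For each of these receptors, every CD31+ library was above every P2 library, though libraries did not overlap for 77.2% of all genes. *Fcgr2b*, the inhibitory Fc receptor of sinusoids (8.21, 10.6, and 12.4 CPM), and *Wnt9b* (1.14, 1.73, and 1.204 CPM), a Wnt ligand, were low in CD31+ cells and near 0 in P2 cells. The growth factor genes *Hgf*, *Wnt2*, and *Rspo3* were at 16.2, 15.6, and 16.9, 4.69, 4.89, and 2.45, and 9.03, 8.12, and 4.59 CPM in CD31+ replicates 1, 2, and 3, and had the smallest differences of the list (-4.43 ± 0.32, -4.54 ± 0.51, and -3.18 ± 0.38). *Clec4g* was at 1.16, 0.252, and 0.497 CPM in CD31+ libraries and had no count in P2 libraries.

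Arterial, venous, and Notch pathway genes were higher in CD31+ cells for 20 of 21 tested members (22 listed), all beyond 2-fold (median -5.198, and -6.24 without P2 replicate 2). The arterial genes *Dll4* and *Efnb2*, a Notch ligand and an ephrin, were at 132, 157, and 144 CPM and 167, 214, and 187 CPM in CD31+ libraries. The venous factor gene *Nr2f2* was at 354, 396, and 393 CPM and that of the coreceptor *Nrp2*, known from veins and lymphatics, at 343, 348, and 330.4 CPM. The CD31+ libraries thus held arterial and venous genes together. *Sema3g*, an arterial semaphorin, had the largest difference (0.0216, 0.254, and 0.0724 against 9.29, 12.05, and 8.89 CPM), and *Jag2*, another Notch ligand, the smallest that passed (-2.37 ± 0.39). *Dach1*, which promotes arterial growth, was at 2.89 and 4.69 CPM and did not pass the test (adjusted p = 0.0705).

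Basement membrane and matrix genes were higher in CD31+ cells for all 18 tested (20 listed), 17 beyond 2-fold (median -4.48). *Col4a1* was at 12.7, 76.95, and 20.2 CPM in P2 libraries and 2197, 1888, and 1577 CPM in CD31+ libraries, *Hspg2*, the perlecan gene, at 19.8, 95.3, and 28.8 CPM and 2221, 2093, and 2125 CPM, and the laminin gene *Lama4* at 3.199 and 173 CPM on average. *Fn1*, which encodes fibronectin, and *Lamc1* differed less (-3.12 ± 0.15 and -2.48 ± 0.08). *Fn1* was higher still in CD54+CD31- cells, at 5089 ± 482 CPM (SD, n = 3). Of the BMP and TGF-beta genes, 19 of 20 were higher in CD31+ cells, 17 beyond 2-fold (median -4.19). *Acvrl1*, the endothelial receptor ALK1, was at 0.259, 1.74, and 0.506 CPM and 45.6, 50.01, and 39.9 CPM. The ligand genes *Bmp6* and *Bmp2*, which signal to hepatocytes in iron control, were at 83.5, 73.8, and 89.7 CPM and 192, 205, and 191 CPM in CD31+ libraries and at 1.68 and 4.66 CPM on average in P2 cells. *Smad6*, a feedback inhibitor, had a log2 fold change of -5.501 ± 0.42. The ligand gene *Tgfb1* was closer, at 94.9, 106, and 96.1 CPM in P2 libraries and 187, 238, and 205 CPM in CD31+ libraries.

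MHC class I and interferon genes were mostly higher in CD31+ cells, 20 of 23 tested (25 listed) and 13 beyond 2-fold (median -2.06). *Rsad2*, an antiviral enzyme, was at 0.0432, 0.782, and 0.253 CPM and 8.28, 11.8, and 14.8 CPM, *Irf1* at 0.691, 1.45, and 1.63 CPM and 27.8, 17.8, and 54.7 CPM, and *Ifitm3* at 0.453, 1.701, and 0.8501 CPM and 15.6, 24.9, and 31.5 CPM. Each was highest in P2 replicates 2 or 3 and in CD31+ replicate 3. Without CD31+ replicate 3, 9 genes of the list were beyond 2-fold. The class I genes themselves went the other way or differed little. *H2-K1* was higher in P2 cells, at 29.1, 29.1, and 28.2 CPM against 13.9, 15.2, and 15.6 CPM (0.95 ± 0.08), whereas *H2-D1* was at 44.7, 44.8, and 41.9 CPM against 50.5, 57.7, and 52.5 CPM (-0.29 ± 0.12), a call lost without any 1 library (adjusted p = 0.051 to 0.292). *Tapbp*, which loads peptides, was higher in P2 cells with TMM (0.26) but not with the authors' factors (-0.11).

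Genes of other blood lineages were present in the CD31+ libraries and low in P2 libraries. All 22 megakaryocyte and platelet genes tested (23 listed) were higher in CD31+ cells, 20 beyond 2-fold (median -3.02), and they summed to 137, 304, and 137 CPM in P2 libraries and 1115, 1865, and 1526 CPM in CD31+ libraries. *Pf4*, platelet factor 4, was at 9.39, 27.4, and 10.2 CPM and 64.7, 179, and 143 CPM, and *Itga2b*, the CD41 gene of megakaryocytes and early progenitors, at 12.9, 29.3, and 11.8 CPM and 156, 199.6, and 178 CPM. *Clec1b*, the podoplanin receptor of platelets, had the largest difference (-4.71 ± 0.33), followed by *Selp* (-4.15 ± 0.57) and *Mmrn1* (-3.497 ± 0.36), which endothelium also makes. *Gp9*, *Gp5*, and *Nrgn* had the smallest, between -1.93 and -1.11. Of the macrophage genes, 17 of 18 tested (20 listed) were higher in CD31+ cells (median -3.28). They summed to 12.6, 26.7, and 16.4 CPM in P2 libraries and 258, 291, and 349 CPM in CD31+ libraries. The sums were as high in CD54+CD31- libraries, at 291, 286, and 418 CPM. *Mertk*, the receptor for dying cells, was at 108, 97.95, and 123 CPM in CD31+ libraries and 72.7 ± 7.23 CPM (SD, n = 3) in CD54+CD31- libraries, and *Csf1r*, the defining receptor of macrophages, at 8.31, 10.5, and 14.7 CPM in CD31+ and 1.201 CPM in P2 cells. Of 15 granulocyte and mast cell genes, 14 were higher in CD31+ cells (median -5.58, and -5.301 with *Prss34*, which had no count in P2 cells, set at its bound), and in P2 cells they summed to 3.26, 5.75, and 5.26 CPM. Among 8 lymphoid genes tested (16 listed), 6 were higher in CD31+ cells, with *Ebf1*, a factor of B cells that mesenchyme also expresses, at 20.1, 14.8, and 19.7 CPM and *Gata3* at 4.11 CPM on average. The CD31+ replicate with most granulocyte RNA, replicate 3, was not the one with most platelet RNA, replicate 2.

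Genes of hepatoblasts and stellate cells were at low levels in both. The 19 tested hepatoblast genes (20 listed) summed to 810.3, 817, and 803 CPM in P2 libraries and 1151, 1057, and 1014 CPM in CD31+ libraries, against 84648, 94243, and 95619.9 CPM in CD54+CD31- libraries. They were slightly higher in CD31+ cells for 14 members, none beyond 2-fold (median -0.44). Of 18 stellate and mesenchymal genes tested (20 listed), 5 were higher in CD31+ cells and 13 did not pass the test (median -0.53).

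For the question of which hematopoietic genes the populations share, 123 regulators and signaling genes of blood were listed, of which 116 were tested. Of these, 67 had at least 5 CPM in all 6 libraries, 57.8%, against 50.7% of all genes, but 15 of the 67 were beyond 2-fold higher in P2 cells and 18 in CD31+ cells. A level above 5 CPM can include RNA of the other population, whose share is given above. A gene was counted as shared when it had at least 5 CPM in all 6 libraries and the 95% interval of its log2 fold change lay between -1 and 1. By this rule 18 were shared, 15.5% of those tested, a share below the 24.6% of all genes. Of the 116, 30 were higher in P2 cells and 72 in CD31+ cells, 19 and 59 beyond 2-fold. Over all genes, 34.3% and 39.4% were higher, and 11.5% and 25% beyond 2-fold. The 116 include genes also known as vessel markers, such as *Cdh5*, *Tek*, and *Esam*. They also include *Pecam1*, the gene of the CD31 antibody. Part of the lean toward CD31+ cells, and of the low share of shared genes, was thus set by the list and the gate.

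Of the 18 shared genes, 11 came from the 67 tested signaling and adhesion genes and 7 from the 51 tested regulators. *Vav1*, an exchange factor for Rac specific to blood cells, was at 25.4, 30.5, and 27.9 CPM in P2 libraries and 20.7, 27.7, and 32.1 CPM in CD31+ libraries, with an interval of -0.41 to 0.52. *Inpp5d*, which encodes the phosphatase SHIP1, was at 92.2, 94.6, and 96.1 CPM and 131, 112, and 115 CPM (-0.70 to 0.02). In CD54+CD31- libraries these genes were at 7.45, 11.8, and 13.1 CPM and 12.8, 15.8, and 22.1 CPM. The P2 and CD31+ values of *Vav1* overlapped, and every CD31+ value of *Inpp5d* was above every P2 value. *Dock2*, a Rac activator of leukocytes, was at 22.8, 27.8, and 26.8 CPM and 17.2, 24.4, and 35.8 CPM (-0.56 to 0.56), and *Nckap1l*, a subunit of the hematopoietic WAVE complex, at 16.6, 22.1, and 20.02 CPM and 9.66, 17.5, and 22.4 CPM (-0.40 to 0.88). *Dock2* and *Nckap1l* averaged 14.6 and 11.5 CPM in CD54+CD31- cells, and *Nckap1l* did not differ there from CD31+ cells by the quasi-likelihood test (adjusted p = 0.138). *Vav1*, *Dock2*, and *Nckap1l* rose from CD31+ replicate 1 to 3, as did the summed granulocyte list. The shared genes *Arhgap30*, *Tifa*, and *Cd37*, and the broadly expressed *Cd47*, *Elf1*, and *Sos1*, rose in the same order. The rest of the shared genes, among them *Inpp5d*, did not. Whether part of the level of shared genes in CD31+ libraries came from other cells was not tested. *Fyb*, an adaptor between immune receptors and integrins, averaged 30.5 and 23.2 CPM, the GTPase-activating *Arhgap15* and *Arhgap30* 42.7 and 30.9 and 8.88 and 9.93 CPM, and *Tmc8* 28.05 and 24.2 CPM. In CD54+CD31- cells the same 4 averaged 12.5, 6.97, 7.45, and 5.18 CPM. The TRAF adaptor gene *Tifa* (12.96 and 9.74 CPM), the kinase gene *Ripk3* (25.8 and 33.3 CPM), and the leukocyte tetraspanin gene *Cd37* (9.16 and 14.1 CPM) were at 2.63, 4.43, and 1.58 CPM in CD54+CD31- cells.

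The other shared genes are used by many cell types. *Sos1*, the Ras exchange factor, was at 72.5 ± 3.09 CPM in P2 and 63.8 ± 2.07 CPM in CD31+ cells (SD, n = 3), *Ptpn11*, which encodes SHP2, at 177 ± 14.9 and 159.8 ± 22.3 CPM, and *Cd47*, the ligand that restrains phagocytes, at 164 ± 17.6 and 153 ± 37.3 CPM. Among transcription factors, the ETS factor gene *Elf1* was at 103, 113, and 110.0 CPM and 95.7, 107, and 119 CPM (-0.21 to 0.26), the E protein gene *Tcf12* at 140.4, 141, and 139 CPM and 213, 188, and 205 CPM (-0.71 to -0.34), and *Lmo4* at 18.00 and 26.6 CPM. In CD54+CD31- cells *Sos1*, *Ptpn11*, and *Cd47* averaged 101, 132, and 109 CPM, and *Sos1* was thus highest there. *Elf1*, *Tcf12*, *Lmo4*, and *Jak2* averaged 55.4, 105, 18.4, and 42.9 CPM in the same cells. Sharing a level within 2-fold did not mean no difference. *Sos1* passed the test as higher in P2 cells, and *Jak2*, *Ripk3*, *Cd37*, *Tcf12*, and *Lmo4* as higher in CD31+ cells. The calls of *Sos1* and *Ripk3* were lost in 9 and 5 of 16 other fits, 3 and 4 of them without 1 library. With an interval within 1.5-fold, 8 of the 18 met the rule. Leaving out each library in turn gave 15 to 17 shared genes, and the authors' factors gave 19, 13 of them in common.

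**Figure D5:**
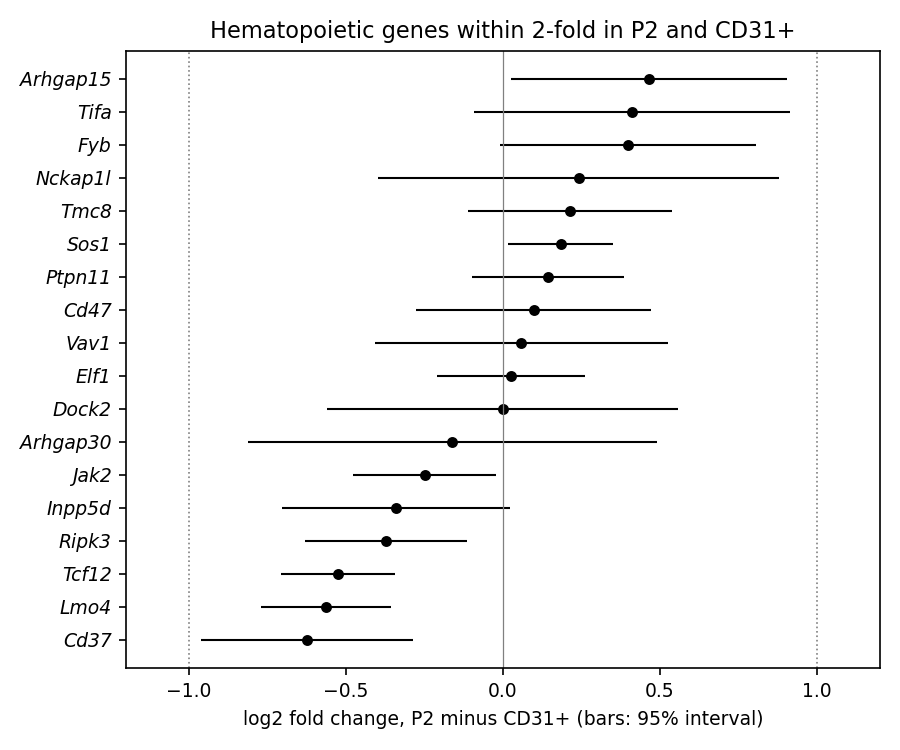
Log2 fold change, P2 minus CD31+, with its 95% interval for the 18 shared hematopoietic genes. Dotted lines mark 2-fold. The estimates run from -0.62 for *Cd37* to 0.47 for *Arhgap15*, and each interval lies within the dotted lines by the rule that chose the genes.

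As examples of regulatory sequence at shared genes, the 250 bases upstream of *Inpp5d* (chr1:87620062-87620311, plus strand) and *Vav1* (chr17:57278850-57279099, plus strand) are printed below from the same RefSeq table of GRCm38.p6, picked after their values were seen. Capitals mark the ETS motif AGGAAG, once in each, just before the annotated start. The stretches of *Jak2*, *Tie1*, and *Kdr*, searched with them for AGGAAG or CGGAAG, held 1, 2, and 0 matches and are not printed.
Inpp5d: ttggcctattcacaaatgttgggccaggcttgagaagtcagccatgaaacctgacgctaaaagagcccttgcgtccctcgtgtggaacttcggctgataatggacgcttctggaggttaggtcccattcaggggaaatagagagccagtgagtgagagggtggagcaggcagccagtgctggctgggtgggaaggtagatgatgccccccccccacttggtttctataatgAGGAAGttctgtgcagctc
Vav1: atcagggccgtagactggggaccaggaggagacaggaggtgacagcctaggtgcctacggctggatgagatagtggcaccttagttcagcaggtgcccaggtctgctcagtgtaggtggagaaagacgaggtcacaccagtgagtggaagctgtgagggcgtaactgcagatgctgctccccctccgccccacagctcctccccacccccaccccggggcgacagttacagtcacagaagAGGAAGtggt

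Hematopoietic genes that were not shared fell on both sides. In P2 cells the integrin gene *Itga4* was at 452, 418, and 519 CPM against 45.8, 62.6, and 70.2 CPM (2.96 ± 0.22), and *Myb*, a factor of proliferating progenitors, at 239, 259, and 284 CPM against 28.6, 34.3, and 45.5 CPM (2.85 ± 0.26). *Stat5a*, which transmits the erythropoietin signal, was at 66.3, 75.3, and 68.2 CPM against 13.8, 12.05, and 12.4 CPM. *Tal1* was at 265, 244, and 267 CPM in P2 libraries and 66.2, 91.5, and 80.2 CPM in CD31+ libraries (1.71 ± 0.22), and *Runx1*, needed for blood cells to arise from endothelium, at 168, 179, and 160.0 CPM and 92.9, 79.8, and 109 CPM (0.85 ± 0.18). In CD54+CD31- cells *Tal1* and *Runx1* were at 42.6 ± 15.2 and 29.2 ± 7.71 CPM (SD, n = 3). Both factors were thus present in every library of P2 and CD31+ cells, with P2 the higher. Signaling genes higher in P2 cells included *Fcho1* (51.9 against 7.13 CPM), the integrin adaptor *Apbb1ip* (179.8 against 26.1 CPM), the kinase gene *Btk* (64.8 against 19.3 CPM), and *Rac2* (50.8 against 20.9 CPM). *Lmo2*, the bridging factor of the TAL1 complex, was at 14.9 against 3.27 CPM, with 62.5% of its span in a neighboring gene.

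Of 51 regulators known from both blood and endothelium that were tested, 33 (64.7%) were higher in CD31+ cells and 15 (29.4%) in P2 cells. Over all genes the shares were 39.4% and 34.3%. *Fli1* and *Erg*, ETS factors of stem cells and vessels, were at 5.61, 22.01, and 8.41 CPM against 373, 332, and 322 CPM and 1.06, 7.86, and 2.97 CPM against 229.5, 187, and 192 CPM. *Mecom* was at 3.203 CPM in P2 cells and 166, 157, and 127 CPM in CD31+ libraries, and *Meis1* at 7.45, 8.84, and 7.18 CPM and 104, 78.7, and 89.2 CPM. *Gata2*, a factor of stem cells, mast cells, and endothelium, was at 4.17, 7.27, and 6.64 CPM against 32.1, 35.003, and 37.2 CPM (-2.53 ± 0.31). *Cd34*, a sialomucin of progenitors and vessels, was at 0.194, 2.17, and 0.669 CPM against 38.9, 58.7, and 53.6 CPM (-5.62 ± 0.71). Of 67 signaling and adhesion genes of blood cells tested, 39 (58.2%) were higher in CD31+ cells, 17 (25.4%) in P2 cells, and 11 did not pass the test. *Gfi1* was at 3.05, 6.97, and 10.2 CPM, *Spi1*, the myeloid factor PU.1, at 8.14, 9.66, and 16.4 CPM, and *Cd53* at 1.397, 4.07, and 9.196 CPM in CD31+ replicates 1, 2, and 3, each highest in replicate 3, as was the summed granulocyte list. *Gng2*, a G protein subunit, did not follow that order (76.8, 63.1, and 65.02 CPM).

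Some genes and a relative of theirs were higher in opposite populations. Of 28 pairs, picked with results of these data known, 25 had both members tested. In 16 the member set down as erythroid was higher in P2 cells and the other higher in CD31+ cells. In 5 both were higher in P2 cells. These labels do not divide red cell genes from all others. *Slc2a1*, the other member of its pair, is in the red cell membrane list above, and *Rac2*, set down as erythroid, is among the blood signaling genes. The counts describe the pairs chosen and are not a rate among related genes. Per kilobase of exon, *Gata1* was at 67.8 CPM in P2 and 10.3 in CD31+ cells, and *Gata2* at 1.12 and 6.44. *Klf1* was at 244 and 20.6 CPM per kilobase, whereas *Klf2*, the flow-induced factor of endothelium, was at 1.18 and 38.3. Among receptors, *Kit* was at 34.01 and 6.39 CPM per kilobase and *Kdr* at 3.78 and 215. The beta spectrin genes split the same way, with *Sptb* (1.89 ± 0.14) higher in P2 cells and *Sptbn1* (-4.21 ± 0.20) higher in CD31+ cells. Adducins (*Add2* 2.86, *Add3* -1.88), the 4.1 proteins (*Epb41* 0.88, *Epb41l2* -4.06), and alpha integrins (*Itga4* 2.96, *Itga6* -3.78) did likewise in log2 fold change. So did *Gfi1b* and *Gfi1* (2.94 and -6.39), *Bcl11a* and *Bcl11b* (2.91 and -4.63), *Myb* and *Mybl1* (2.85 and -1.201), *Aqp9* and *Aqp1* (3.39 and -1.59), and *Rac2* and *Rac1* (1.28 and -1.14). The smallest exchanges were those of *Lmo2* and *Lmo4* (2.18 and -0.56) and of *Slc2a3* and *Slc2a1* (0.59 and -0.67). The carbonic anhydrase genes *Car1* and *Car2* were both higher in P2 cells (3.17 and 2.57), as were *Runx3* and *Runx1* (2.801 and 0.85).

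Per kilobase of exon, the genes with the highest values were mostly common to the populations. Whether counts came from exons only is not given, so these values are uncertain as levels of RNA. The RNase P RNA *Rpph1* and the mitochondrial ribosomal RNAs *mt-Rnr1* and *mt-Rnr2* led both, followed by *Cdk8* and *Zc3h7a*. *Il1rapl1* was also among the 10 highest of both, at 2396 in P2 and 2928 in CD31+ cells. The cause of the large counts of *Cdk8*, *Zc3h7a*, and *Il1rapl1* was not tested. The 10 highest of P2 cells included the histone genes *Hist1h2ab* and *Hist1h1a*, at 1532 and 1175 CPM per kilobase against 435 and 271 in CD31+ cells, and the ribosomal protein gene *Rplp1* (1119.9 against 374). Those of CD31+ cells included Gm37376 (1725 against 438), *Actb* (1183 against 673), and *mt-Co1* (845 against 650.1). *Hsp90ab1* was in both, at 2399 in P2 and 1476 in CD31+ cells.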

How the data were processed

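P2, CD31+, and CD54+CD31- cells of E14.5 FL were sorted by the authors, 3 libraries each, and RNA was sequenced after enzymatic removal of ribosomal sequences with a stranded total RNA kit. Reads were trimmed with cutadapt 1.11, aligned to GRCm38 with STAR 2.5.0a, and assigned to genes with featureCounts 1.4.6-p3. The deposited count of each gene is a whole number, not normalized, for 38127 genes in each of 12 libraries. The authors also deposited a score per gene, the count multiplied by 1 factor per library, which was used only to read that factor. Whether counting used strand, intronic reads, or overlapping genes is not given in the sources used here. Protein-coding genes lying wholly within the span of another gene were at 0 in all 12 libraries for 352 of 356 on the same strand and 623 of 636 on the opposite strand only, against 2422 of the other 20726, so levels of overlapping genes are uncertain.

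Counts of the 9 E14.5 libraries were fitted with edgeR 4.0.16 in R 4.3.3 (TMM, filterByExpr, glmQLFit, glmQLFTest, glmTreat for 2-fold, adjusted p below 0.05), with no factor other than population. Levels are CPM on TMM-adjusted library sizes. SE and 95% intervals came from F and the fold change. GENCODE vM21 gave positions and exon lengths for 37932 identifiers. Libraries of a population differed by at least 42.0 in chi-square per degree of freedom, so none was a duplicate. Counting error is small for genes with many counts, and their precision rests on having 3 libraries in each population. It is not small for genes near 0 in 1 population, such as *Prg2* with 0, 9, and 2 counts in P2 libraries. The scripts were tested on simulated counts.

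The gene lists, pairs, and rules were chosen with earlier results of these data known. Genes were named by rule: the 15 largest differences in each direction beyond 2-fold with at least 20 CPM, the 10 highest per exon length, the antibody genes, all shared genes, exchanged pairs, and up to 3 members per list in each direction with those that moved against it. Beyond this rule, *Gata1*, *Epor*, *Tfrc*, heme enzymes, *Slc25a37*, *Stab2*, *Lyve1*, *Mrc1*, *Dll4*, *Efnb2*, *Nr2f2*, *Bmp2*, *H2-D1*, *Pf4*, *Itga2b*, *Csf1r*, and the unshared hematopoietic genes, *Car1*, *Car2*, and *Runx3* were named after their values were seen. Alternatives were other normalizations (size factors of DESeq2, the factors of the authors), DESeq2 1.42.0, other low count filters, a replicate block, other sets of libraries, each library left out, and other limits for shared genes. The 3 E18.5 libraries entered only 1 alternative. Some genes of the lists and pairs are counted but not reported here by name.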

Additional observations from a re-analysis of the deposited data

How the results depend on the processing

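The number of genes passing the test ranged from 9709 with at least 10 counts in every library to 11553 with DESeq2, and the number beyond 2-fold from 4188 to 5814, against 11395 and 5653. Leaving out each library in turn gave 10845 to 11301 and 5325 to 5814. Shared hematopoietic genes numbered 13 to 20 in these settings, 15 to 17 without 1 library, 14 with a minimum of 10 CPM, 18 with 2 CPM, and 8 with an interval within 1.5-fold. With the authors' factors the median log2 fold change of all genes was -0.50, genes beyond 2-fold were higher in P2 cells in 16.8% against 31.5%, and the small differences of *Sos1* (-0.19), *Add1* (-0.11), *Incenp* (-0.073), and *Tapbp* (-0.11) turned toward CD31+ cells without passing the test. The globin median ranged from -0.72 without P2 replicate 3 to 0.36 without CD31+ replicate 3. Of 577 genes of the lists and names, 495 were tested in all 16 other fits, and 419 of these kept their call in each; the other 82 had no value in at least 1 fit. Whether the replicate numbers pair the samples was not settled. Deviations of same-numbered P2 and CD31+ libraries correlated at 0.0111, 0.0720, and 0.342, and those of differently numbered libraries at -0.231 to 0.137. With 3 libraries in each population these values cannot decide it. With the replicate block, 11460 genes passed, 5694 were beyond 2-fold, and 20 hematopoietic genes were shared; in the 6 compared libraries alone, an alternative added after seeing the data, the block gave 10958, 5529, and 18. The cause of these changes was not tested.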

Other observations

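The annotated position of a gene bore on whether it had any count. Among the genes listed for description, all 22 at 0 in every library lay wholly inside another gene's span, such as *Alas2* inside *Apex2*, *B2m* inside *Patl2*, *Lyl1* inside *Nfix*, and *Gmfg* inside *Samd4b*. Over the annotation, 98.9% of protein-coding genes inside another gene on the same strand were at 0, and 98.0% of those inside a gene on the opposite strand only, against 11.7% of the others. The share was thus nearly the same whatever the strand of the surrounding gene. Of the other genes named in the report, *Rpph1* (89.03%), *Clec4g* (79.8%), *Pes1* (79.9%), *Lmo2* (62.5%), *Tifa* (59.4%), *Mpo* (49.5%), *Hbp1* (46.9%), *Orc2* (45.0%), *Lss* (44.1%), *Stab2* (44.1%), *Cish* (38.9%), *Sphk1* (37.4%), *Fyb* (35.9%), and *Tapbp* (34.2%) are among those that share the given part of their span with other genes.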
